A study of Homo sapiens with 6 samples.

Results

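The TRIM family was examined in U937T:PLZF-RARa cells. The parent, U937, is an established human line of monocytic origin, and these cells switch on the leukaemia fusion PLZF-RARA when tetracycline is taken out of the medium. Members were all genes with a probe set whose platform annotation gives a single symbol of the form TRIM plus a number, together with PML (TRIM19), and 2 pseudogenes were left out. This gave 56 of the 19775 genes that such annotation names on the array, with 138 probe sets, and 32 of the 56 were measured. The brightest probe set by mean log2 intensity stood for each gene, and a gene counts as measured where it had a log2 intensity above 4 (an intensity of 16) on at least 3 arrays. The induced group holds 3 samples kept for 48 h in medium without tetracycline after washing. The uninduced group holds 3 samples kept in the same medium with tetracycline at 0.1 µg/ml. Both groups carry the inducible PLZF-RARA construct and both media held 10% serum, penicillin and streptomycin, puromycin at 0.5 µg/ml and G418 at 1 mg/ml. The fusion and the removal of tetracycline therefore cannot be told apart. The labels do not say whether the line is 1 clone or whether replicates were grown separately, so that every p-value reflects the spread of these 6 samples and no more.

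TRIM proteins share a RING finger, one or more B-box zinc fingers and a coiled coil, and most are ubiquitin ligases: the RING recruits a ubiquitin-loaded E2 enzyme, the coiled coil joins the chains into a dimer, and the C-terminal domain chooses the substrate. That C-terminal part defines the classes, among them C-IV with a SPRY domain, C-VI with a PHD finger and bromodomain, C-VII with NHL repeats, C-I with a microtubule-directing COS box and C-XI with a membrane anchor. Many SPRY members restrict viruses or tune the sensing of foreign nucleic acid in myeloid cells. PML builds nuclear bodies and is the usual fusion partner of RARA in acute promyelocytic leukaemia, in the place that PLZF takes here.

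Induction was checked on the parts of the fusion. A RARA probe set lay at 7.40 to 7.73 on the log2 scale in induced samples and at 1.81 to 1.99 in uninduced samples, at least 12.0-fold higher against the filter value of 4 (limma, adjusted p = 1.9e-07). It was 1 of 5 RARA probe sets, and of the other 4 none was called higher and 1 was lower (-1.17, adjusted p = 1.1e-05). The ZBTB16 (PLZF) probe set lay at 2.84 to 3.96 in induced samples, against 5.08 to 5.49 in uninduced samples, at least 2.38-fold lower (adjusted p = 0.000812). The higher RARA probe set passed the filter through the induced group alone, and the ZBTB16 one through the uninduced group alone. Their p-values therefore rest in part on values that did not pass. Which of the RARA and ZBTB16 probe sets lie in the parts kept in the fusion was not analysed here. Of 12 monocytic markers 10 had a probe set and 7 of these were measured, 2 higher and 5 lower. The higher ones were PTPRC (log2 difference 1.77) and CD4 (0.24). The myeloid genes LYZ (log2 difference -0.85) and ITGB2 (-0.69) still lay at 10.64 or above on all 6 arrays. The granule protease genes ELANE (-2.80) and PRTN3 (-3.31) were lower. The myeloid transcription factor gene SPI1, which passed the filter through the uninduced group alone, was at least 8.70-fold lower. The monocyte markers CD14 and CSF1R lay at 3.18 or below in both groups. Of 9 markers of other cells with a probe set, 4 were measured: NCAM1 was higher by 1.12, COL1A1 lower (-0.55) and KRT8 and PECAM1 had no call. PECAM1 lay at 9.40 or above on all 6 arrays, and whether it marks other cells in this line was not tested. The summed intensity of all 9 markers was 1859 to 1939 in induced and 1523 to 1542 in uninduced samples. HBB, CD3D and EPCAM lay at 3.56 or below throughout, and the part of these markers in the results was not tested. Uninduced replicate 3 was dimmer than the others, with a 75th percentile of 6.93 against 7.12 to 7.19. As a measure of RNA quality, the control probe sets at the 3' and 5' ends of GAPDH differed by 0.579 ± 0.034 log2 units in induced and by 0.503 ± 0.025 in uninduced samples (SD, n = 3 each; two-sided exact permutation p = 0.1, the smallest that 3 against 3 allows). Those of ACTB differed more, by 1.41 ± 0.10 in induced and by 1.25 ± 0.08 in uninduced samples (SD, two-sided exact permutation p = 0.2). The part of RNA quality in the results was not tested.

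Of the 32 measured TRIM genes 14 were higher and 7 lower in induced samples and 11 had no call (limma, adjusted p under 0.05 over all tested probe sets). That is 65.6% called, against 66.5% of the 9834 measured genes, so the family as a whole changed about as often as any gene. The split depended on scaling: quantile normalization gave 13 higher and 13 lower, median centring gave 12 and 10, and leaving out uninduced replicate 3 gave 13 and 10. The family's median log2 difference was 0.06, against 0.02 over all measured genes, and it turned to -0.02 under median centring. By the fitted difference 5 called members were at least 2-fold higher and 3 at least 2-fold lower, where 10.8% and 8.83% of all measured genes were. One of the 5 is TRIM2, which passed the filter through the induced group alone and is shown only as at least 1.33-fold higher; without it 4 members were at least 2-fold higher and 13 higher in all. Without any overlap between groups were 25 of the 32, or 78.1%, against 74.4% of all measured genes. In bulk samples such as these, fewer cells with a transcript and less of it per cell cannot be told apart.

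**Figure D1:**
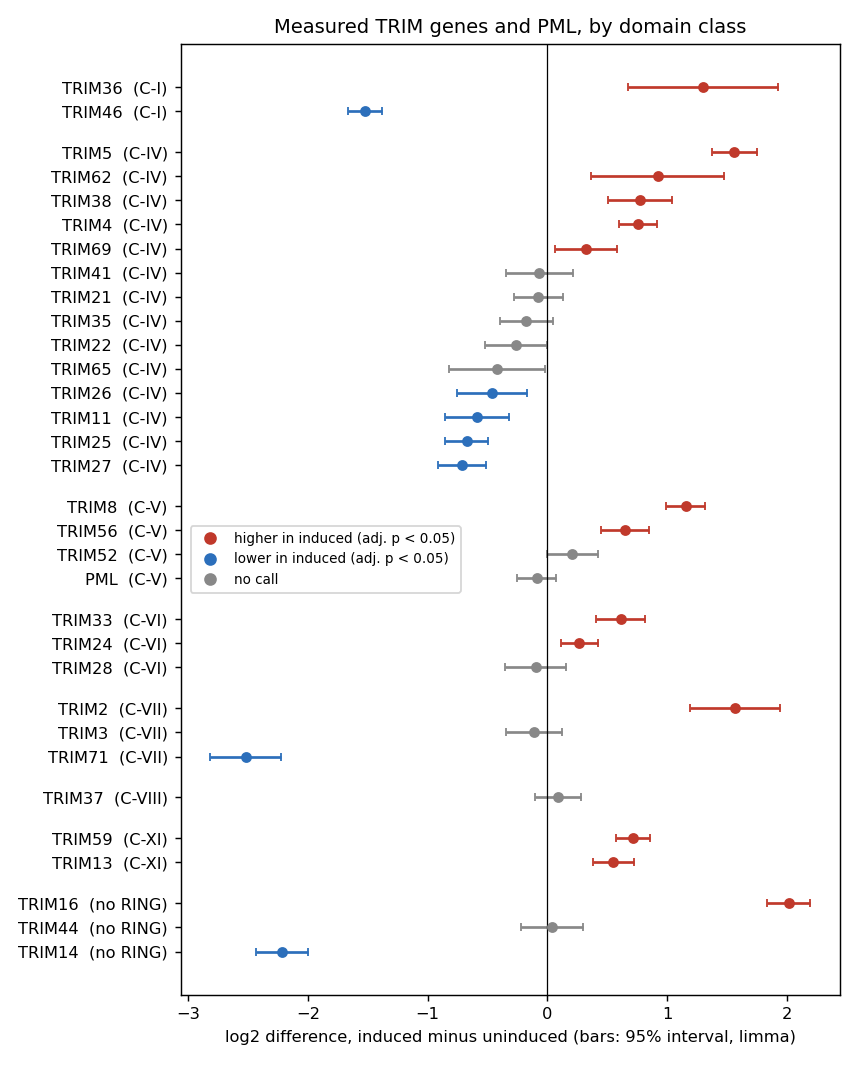
Log2 difference, induced minus uninduced, of the 32 measured TRIM genes (y axis, grouped by domain class; points, limma estimates; bars, 95% intervals). Red points were higher, blue lower and grey not called at an adjusted p of 0.05. TRIM16 lies farthest to the right at 2.01 and TRIM71 farthest to the left at -2.52.

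Members known as interferon-inducible had calls in both directions. Of 10 such genes, all measured, 4 were higher, 3 lower and 3 had no call, with a median of -0.08, and a split like this is near the 35.8% higher and 30.7% lower among all measured genes. Quantile normalization gave 3 higher and 6 lower, median centring 3 and 4. TRIM5, the retroviral restriction factor that binds incoming capsids, had log2 intensities of 11.07, 10.98 and 11.17 in induced samples, against 9.44, 9.61 and 9.50 in uninduced samples. Every induced array lay well above every uninduced one, a 2.95-fold rise (log2 difference 1.56 ± 0.08 SE, limma adjusted p = 6.19e-06). TRIM14, a RING-less adaptor of antiviral signalling at mitochondria, went the other way. It lay at 9.11, 9.37 and 9.11 in induced samples, against 11.42, 11.48 and 11.34 in uninduced samples. All 3 induced arrays were about 2 log2 units below the uninduced ones, a 4.65-fold fall (-2.22 ± 0.09 SE, adjusted p = 2.98e-06).

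The promoters of these genes are shown because the members share a known inducer and differed in direction. The windows run from 250 bases before to 50 bases after the transcription start, 5′ to 3′ on the gene's strand, from RefSeq (GRCh38.p14). Capitals mark letters of the interferon-stimulated response element, searched on both strands as GAAA, any 2 bases and GAAA again, which reads TTTC, 2 bases, TTTC on the opposite strand. TRIM5 lies at chr11:5685025-5685324, TRIM14 at chr9:98119173-98119472, TRIM26 at chr6:30213357-30213656 and TRIM21 at chr11:4393653-4393952, all on the minus strand.
TRIM5: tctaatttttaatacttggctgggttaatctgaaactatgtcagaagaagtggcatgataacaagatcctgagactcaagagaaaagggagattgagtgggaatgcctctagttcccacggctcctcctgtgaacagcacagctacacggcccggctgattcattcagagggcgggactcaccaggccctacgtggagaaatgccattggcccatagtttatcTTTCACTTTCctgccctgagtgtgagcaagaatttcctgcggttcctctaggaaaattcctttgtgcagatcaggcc
TRIM14: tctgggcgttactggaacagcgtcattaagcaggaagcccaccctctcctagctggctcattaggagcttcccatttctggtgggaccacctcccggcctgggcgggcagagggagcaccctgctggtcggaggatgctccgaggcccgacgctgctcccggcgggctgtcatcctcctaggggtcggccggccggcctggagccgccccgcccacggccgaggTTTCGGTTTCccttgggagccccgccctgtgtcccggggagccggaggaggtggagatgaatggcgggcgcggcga
TRIM26: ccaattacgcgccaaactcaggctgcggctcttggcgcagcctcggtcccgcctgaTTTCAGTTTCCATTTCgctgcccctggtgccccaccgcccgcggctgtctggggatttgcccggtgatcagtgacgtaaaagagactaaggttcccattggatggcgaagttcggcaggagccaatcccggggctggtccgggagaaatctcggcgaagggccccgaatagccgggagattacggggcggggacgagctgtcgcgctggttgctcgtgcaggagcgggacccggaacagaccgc
TRIM21: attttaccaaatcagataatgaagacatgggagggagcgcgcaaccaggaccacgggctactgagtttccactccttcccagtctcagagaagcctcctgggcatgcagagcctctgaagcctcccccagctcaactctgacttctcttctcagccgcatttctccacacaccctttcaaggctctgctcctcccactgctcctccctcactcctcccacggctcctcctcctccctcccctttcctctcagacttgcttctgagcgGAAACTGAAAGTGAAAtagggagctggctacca

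With the first transcribed base as 1 and the base before it as -1, the letters lay at -27 to -18 in TRIM5 and at -26 to -17 in TRIM14. TRIM26 held 2 overlapping matches, at -194 to -185 and -188 to -179. TRIM21 held 2 overlapping ones after the start, at 18 to 27 and 24 to 33. Of the 10 interferon-inducible members 8 had a promoter entry and 5 of these held a match, TRIM69 being the fifth. By call, TRIM5 and TRIM69 were higher, TRIM14 and TRIM26 lower and TRIM21 not called. Over the family 43 of 56 genes had an entry and 8 of them, or 18.6%, held the letters, against 3.65% of 27305 promoters of the same length. The other 3 were TRIM2 and TRIM16, which were higher, and TRIM44, which had no call. An E-box, searched as the palindrome CACGTG, stood in 3 of the 43, or 7.0%, against 7.43% of all promoters, and these were TRIM46, TRIM25 and TRIM66. A match is a description of letters and not of binding.

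The other interferon-inducible members moved less. TRIM38, a ubiquitin ligase that restrains signalling from Toll-like receptors, lay at 9.15, 8.80 and 8.82 in induced samples, against 8.06, 8.27 and 8.13 in uninduced samples. TRIM56, which acts with the DNA sensor adaptor STING, lay at 9.50, 9.30 and 9.24 in induced samples, against 8.67, 8.75 and 8.67 in uninduced samples. Neither overlapped between groups, and they rose 1.71-fold (limma, adjusted p = 0.000859) and 1.57-fold (adjusted p = 0.000448). Their other tested probe sets rose less, by log2 differences of 0.33 and 0.42 for TRIM38 and 0.35 for TRIM56. TRIM69, an antiviral SPRY protein, lay at 5.56, 5.93 and 5.74 in induced samples, against 5.31, 5.52 and 5.43 in uninduced samples. The gap was narrow, with a 1.25-fold rise (adjusted p = 0.037) that was not called under 8 alternatives (0.0551 to 0.432). These were quantile normalization, median centring, no filter, a trended and robust eBayes, and leaving out induced replicate 2 or 3 or uninduced replicate 1 or 3.

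TRIM25, the ubiquitin ligase known for activating the RNA sensor RIG-I, lay at 9.12, 9.15 and 9.17 in induced samples, against 9.87, 9.91 and 9.69 in uninduced samples. TRIM26, which limits signalling through IRF3, lay at 7.39, 7.57 and 7.55 in induced samples, against 8.16, 8.02 and 7.72 in uninduced samples. Both fell without overlap, TRIM25 1.60-fold (limma, adjusted p = 0.000243) and TRIM26 1.38-fold (adjusted p = 0.0141), and TRIM26 was not called without induced replicate 1 (0.0518) or with no filter (0.0609). TRIM22, an antiviral neighbour of TRIM5, lay at 8.79, 8.97 and 8.68 in induced samples, against 9.21, 9.12 and 8.90 in uninduced samples. The groups overlapped slightly, with a difference of -0.27 (95% interval -0.52 to -0.01, adjusted p = 0.0701). It was called lower with quantile normalization (0.00855), median centring (0.00556) and array weights (0.00556), and without uninduced replicate 3 (0.0226) or induced replicate 2 (0.0421). TRIM21, the cytosolic antibody receptor, lay at 6.70, 6.76 and 6.76 in induced samples, against 6.94, 6.86 and 6.65 in uninduced samples, and the uninduced values enclosed the induced ones (-0.08, 95% interval -0.28 to 0.13, adjusted p = 0.463). After quantile normalization it was called lower (-0.22, adjusted p = 0.0135).

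PML showed no call. Its brightest probe set lay at 5.03, 5.13 and 5.13 in induced samples, against 5.28, 5.14 and 5.14 in uninduced samples. The values of both groups lay within 0.25 log2 units, close to the filter (difference -0.09, 95% interval -0.25 to 0.07, limma adjusted p = 0.287), and after quantile normalization PML was called lower (-0.28, adjusted p = 0.0142). The second tested PML probe set lay between 4.99 and 5.02 on all 6 arrays. The other 8 of its 10 probe sets lay at 1.64 to 3.72, below the filter. The table has no detection calls, so whether this flat signal is transcript or background was not tested.

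**Figure D2:**
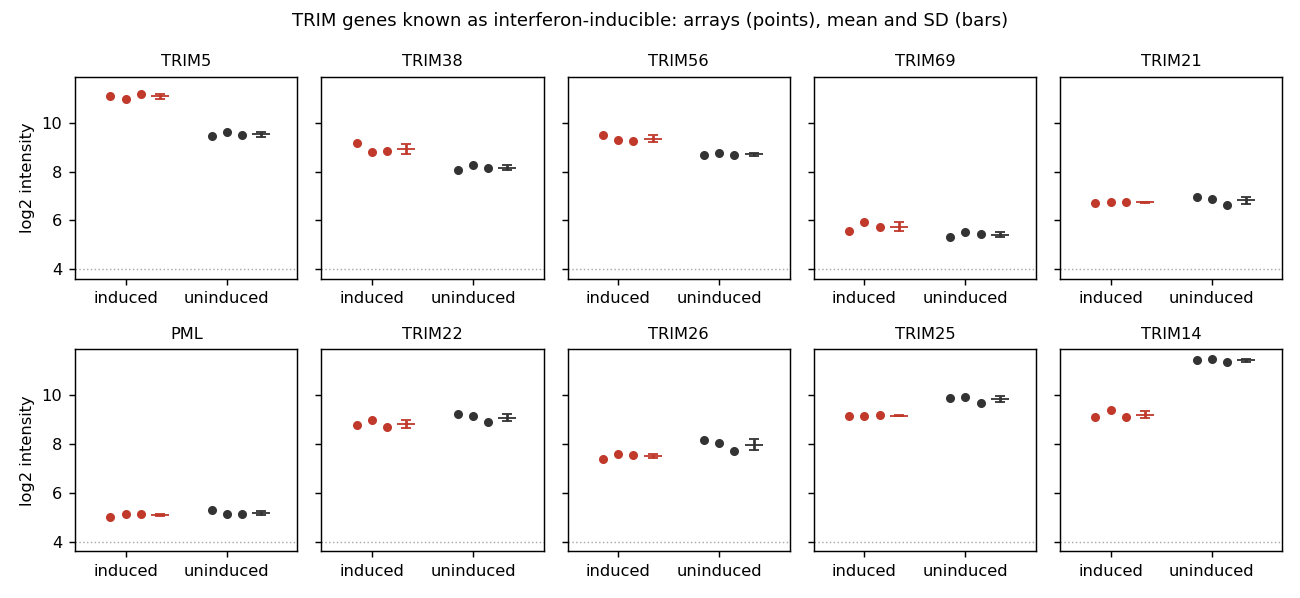
Log2 intensity (y axis) of the 10 TRIM genes known as interferon-inducible on each array (points; 3 induced in red, 3 uninduced in black; bars, mean and SD; dotted line, the filter at 4). TRIM5 lies near 11 in induced and near 9.5 in uninduced samples, TRIM14 near 9.2 and 11.4, and PML stays near 5 in both.

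Among the remaining SPRY members of class C-IV, TRIM4 and TRIM62 were higher and TRIM27 and TRIM11 lower. With those above, 5 of the 14 measured in this class were higher and 4 lower, or 64.3% called, near the share of all measured genes, with a median of -0.13; quantile normalization gave 4 and 8, median centring 4 and 7. TRIM27, a nuclear ubiquitin ligase known as a fusion partner of RET, was 1.64-fold lower (limma, adjusted p = 0.000295), and all 3 of its tested probe sets fell, by 0.71 to 0.90. TRIM11, a ubiquitin ligase, was 1.51-fold lower in its brightest probe set (adjusted p = 0.00308). Its second tested probe set had no call (0.09, adjusted p = 0.453), and the mean over both was -0.25. TRIM62, a regulator of epithelial polarity, was 1.89-fold higher (adjusted p = 0.0115) with a wide spread, at 4.89, 5.64 and 5.61 in induced samples, against 4.36, 4.24 and 4.78 in uninduced samples, and was not called with no filter (0.0663). TRIM65, which activates the RNA sensor MDA5, lay at 6.69 to 6.72 in induced samples, against 7.49, 7.13 and 6.76 in uninduced samples. Uninduced replicate 3, the dim array, nearly met the induced ones, and the difference of -0.42 had an adjusted p of 0.0661, or 0.00529 without that array. Under 6 other alternatives, quantile normalization and median centring among them, it was called lower as well (0.00802 to 0.047). TRIM35 (-0.18, 95% interval -0.40 to 0.04) and TRIM41 (-0.07, 95% interval -0.35 to 0.21) had no call. TRIM35 was called lower with quantile normalization (0.0146) and with median centring (0.0357), and TRIM41 without uninduced replicate 3 (0.0319).

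The chromatin-bound members of class C-VI split by gene. TRIM33, which ubiquitinates SMAD4 and is needed for blood formation, lay at 10.70, 10.70 and 10.57 in induced samples, against 10.11, 10.14 and 9.90 in uninduced samples, 1.53-fold higher (limma, adjusted p = 0.000669). TRIM24, a cofactor that binds nuclear receptors including those for retinoic acid, lay at 10.80, 10.74 and 10.87 in induced samples, against 10.51, 10.60 and 10.50 in uninduced samples. Its rise was small but without overlap, 1.20-fold (adjusted p = 0.0102), and it was not called after median centring (0.0631). TRIM28, the corepressor of KRAB zinc finger proteins, lay at 11.99 to 12.20 in induced samples and 12.01 to 12.36 in uninduced samples, with no call (-0.10, 95% interval -0.35 to 0.15, adjusted p = 0.439).

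Members of class C-V have no further C-terminal domain, and 2 of the 4 measured, TRIM8 and TRIM56, were higher and 0 lower; quantile normalization gave 1 lower, PML. TRIM8, a ubiquitin ligase of NF-kB and STAT signalling, lay at 11.65, 11.54 and 11.52 in induced samples, against 10.48, 10.40 and 10.37 in uninduced samples. The gap was about 1 log2 unit on every array, 2.22-fold higher (limma, adjusted p = 1.21e-05), and all 3 tested TRIM8 probe sets rose, by 0.48 to 1.15. TRIM52 differed by 0.21 (95% interval -0.01 to 0.42) with no call, and was called higher with the mean over its probe sets (0.0422). The membrane-anchored members of class C-XI, both ubiquitin ligases, rose: TRIM59 1.64-fold (adjusted p = 5.67e-05), at 12.52 to 12.57 in induced and 11.78 to 11.89 in uninduced samples, and TRIM13 1.46-fold (adjusted p = 0.000487), at 9.42 to 9.50 in induced and 8.82 to 9.0 in uninduced samples.

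The cytoskeletal and NHL-repeat members held some of the widest gaps, in both directions. TRIM71 (LIN41), an RNA-binding repressor of differentiation genes in stem cells, lay at 5.20, 4.89 and 5.22 in induced samples, against 7.65, 7.78 and 7.44 in uninduced samples. No other measured member fell as far: the groups stood over 2 log2 units apart, a 5.73-fold fall (-2.52 ± 0.12 SE, limma adjusted p = 5.82e-06). TRIM2, a neuronal ubiquitin ligase of the same class C-VII, lay at 4.14, 4.62 and 4.49 in induced samples, against 2.71, 3.10 and 2.73 in uninduced samples. It was above the filter in induced samples alone, so its rise is given as at least 1.33-fold (adjusted p = 0.000136), and its other 5 probe sets were below the filter. TRIM3, also with NHL repeats, lay at 4.26 to 4.60 in induced and 4.58 to 4.61 in uninduced samples with no call (-0.11, 95% interval -0.35 to 0.12), and was called lower after quantile normalization (-0.27, adjusted p = 0.0366).

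Of the 2 measured members of class C-I, which bind microtubules, 1 rose and 1 fell. TRIM46, which bundles microtubules at the start of the axon in neurons, lay at 5.50, 5.49 and 5.55 in induced samples, against 7.04, 6.99 and 7.09 in uninduced samples. Replicates were within 0.10 of each other and the groups 1.5 apart, a 2.88-fold fall (-1.52 ± 0.06 SE, limma adjusted p = 2.61e-06). TRIM36 lay at 7.34, 7.20 and 7.19 in induced samples, against 6.48, 6.01 and 5.34 in uninduced samples. The uninduced values were spread over more than 1 log2 unit and still lay below all induced ones, a 2.46-fold rise (1.30 ± 0.26 SE, adjusted p = 0.00424). The lowest, 5.34, came from uninduced replicate 3, the dim array, and without that array the difference was 0.99 (limma, adjusted p = 0.00227). The other TRIM36 probe sets were below the filter on all arrays. TRIM37 of class C-VIII, which keeps centrosome number in check, differed by 0.09 (95% interval -0.11 to 0.28) with no call.

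TRIM16, a RING-less member known for marking damaged lysosomes for removal, rose furthest of the measured members. It lay at 7.01, 7.11 and 7.18 in induced samples, against 5.15, 5.12 and 4.98 in uninduced samples, with all induced arrays about 2 log2 units above, a 4.04-fold rise (2.01 ± 0.08 SE, limma adjusted p = 2.32e-06). Its single probe set is shared by no other gene in the annotation, but TRIM16 has a close copy, the pseudogene TRIM16L, and cross-hybridisation was not tested; both TRIM16L probe sets lay at 3.55 or below. TRIM44, a RING-less member with a ubiquitin-binding finger, had no call (0.04, 95% interval -0.22 to 0.30).

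**Figure D3:**
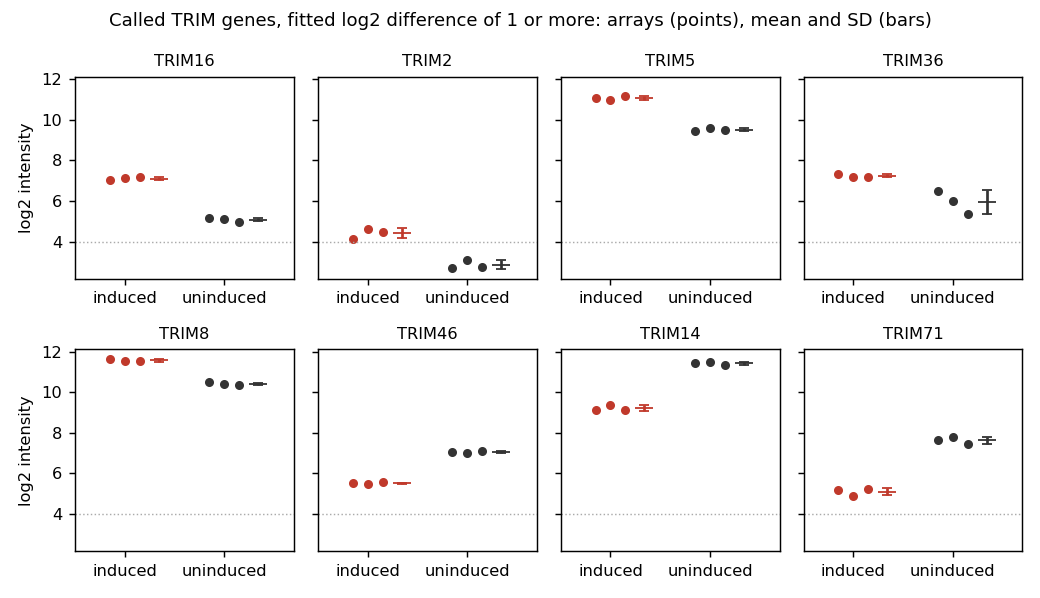
Log2 intensity (y axis) on each array (points; 3 induced in red, 3 uninduced in black; bars, mean and SD; dotted line, the filter at 4) of the 8 called TRIM genes with a fitted log2 difference of at least 1; that of TRIM2, below the filter on all uninduced arrays, is a bound of 1.33-fold. TRIM16, TRIM2, TRIM5, TRIM36 and TRIM8 lie higher in induced samples and TRIM46, TRIM14 and TRIM71 lower, with no overlap in any panel.

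The remaining 24 genes were not measured, and their values lay between 1.60 and 4.30. Of these 23 differed by less than 0.11 between groups. They were the SPRY genes TRIM6, TRIM7, TRIM10, TRIM15, TRIM17, TRIM47, TRIM50, TRIM51, TRIM58, TRIM68 and TRIM72, the muscle genes TRIM54, TRIM55 and TRIM63, and TRIM29, TRIM31, TRIM32, TRIM40, TRIM42, TRIM45, TRIM61, TRIM66 and TRIM67. TRIM9, a neuronal class C-I member, was the exception. It lay at 3.18, 2.88 and 2.95 in induced samples, against 4.30, 3.90 and 3.49 in uninduced samples. With 1 array above the filter, no call is made for it, though with no filter it was lower (-0.90, limma adjusted p = 0.0424). In the other 23, at the background level, a fall could not be seen.

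Some members are neighbours. In RefSeq's gene table (GRCh38.p14) TRIM5, TRIM6, TRIM34 and TRIM22 follow each other on chromosome 11: TRIM5 rose, TRIM22 had no call and TRIM6 was not measured. TRIM34 was not analysed here because its probe sets name a second gene. On chromosome 6, where TRIM31, TRIM40, TRIM10, TRIM15 and TRIM26 follow each other, TRIM26 alone was measured. On chromosome 1 TRIM11 fell and its neighbour TRIM17 was not measured.

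Over single probe sets 25 of the 56 tested were higher and 13 lower, 67.9% called against 62.5% of the 20552 tested probe sets. The 25 include 1 probe set of TRIM2 and 1 of TRIM33 that passed the filter through the induced group alone. Of 14 genes with over 1 tested probe set 6 had every tested probe set called in 1 direction, 3 had none called, 5 had a mix of called and uncalled ones, and TRIM4, 1 of those 5, was called in both directions. TRIM4, a ubiquitin ligase of RIG-I, rose in its brightest probe set, at 9.60, 9.63 and 9.56 in induced samples, against 8.89, 8.88 and 8.74 in uninduced samples (1.69-fold, limma adjusted p = 7.34e-05). In its dimmest tested probe set it lay at 6.26, 5.63 and 5.11 in induced samples, against 6.61, 7.09 and 6.37 in uninduced samples, and was lower (-1.02, adjusted p = 0.0241), while the third tested one differed by 0.17 with no call. The direction given for TRIM4 therefore rests on 1 probe set: the mean over its probe sets was -0.03 (adjusted p = 0.825).

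TRIM13 rose in all 4 tested probe sets, by 0.55, 0.46, 1.08 and 2.58. The one with the largest rise lay at 7.26, 7.48 and 6.86 in induced samples, against 4.82, 4.72 and 4.33 in uninduced samples. TRIM14 fell in all 3, by 2.22, 2.14 and 1.66. The mean over the TRIM13 probe sets was 1.17. TRIM24 rose in 2 of 3, by 0.26 and 0.92, so that its size depends on the probe set. TRIM33 rose in 3 of 4, by 0.61 and 0.65 and, in a probe set below the filter on all uninduced arrays, at least 1.51-fold. TRIM37 had no call in its brightest probe set but was lower in its other tested one, at 6.02, 5.90 and 5.95 in induced samples, against 6.42, 6.48 and 6.21 in uninduced samples (-0.41, adjusted p = 0.00524). Which transcript each probe set covers was not analysed here.

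**Figure D4:**
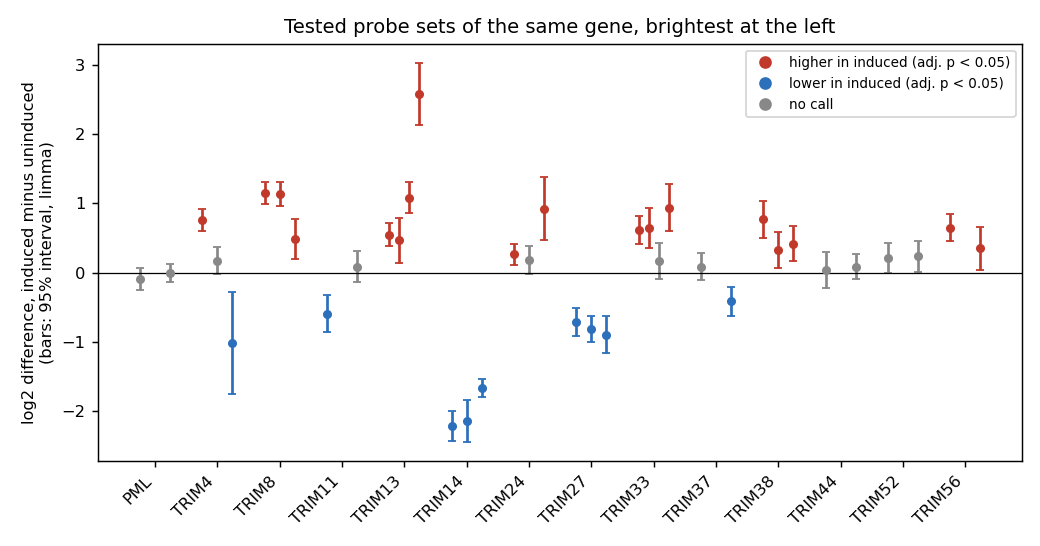
Log2 difference, induced minus uninduced (y axis; bars, 95% intervals), of each tested probe set of the 14 TRIM genes with over 1 (x axis). All 3 TRIM14 points lie below -1.6, all 4 TRIM13 points above 0, and the TRIM4 points reach from 0.76 to -1.02.

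Partner genes were then read from lists of the pathways in which TRIM proteins act. Of 75 listed genes 60 were measured, of which 35 were higher and 3 lower, with a median of 0.30. The 35 include IRF7, which passed the filter through the induced group alone, and IRF9, which was above it on only 4 of the 6 arrays. The counts were 35 and 8 under quantile normalization, 32 and 9 under median centring, and 31 and 6 without uninduced replicate 3. Over all measured genes 35.8% were higher and 30.7% lower. Among genes of PML nuclear bodies 9 of 11 were higher and 0 lower, with a median of 0.71. That is 81.8% called, against 66.5% of all measured genes. DAXX was lower with quantile normalization (limma, adjusted p = 0.0415), and likewise with median centring (0.0331). The kinase HIPK2 lay at 10.88, 10.95 and 10.77 in induced samples, against 8.92, 9.33 and 9.12 in uninduced samples, 3.35-fold higher (limma, adjusted p = 1.85e-05). The body proteins SP100 and SP110 were 1.85-fold and 2.22-fold higher. The mean over the SP100 probe sets was a log2 difference of 0.44, against 0.89 in its brightest. The chromatin remodeller ATRX was 1.85-fold higher, while the histone chaperone DAXX (-0.11, 95% interval -0.27 to 0.04) and the helicase BLM had no call. These rises stood beside a PML signal with no call.

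Partners of TRIM28 and TRIM33 were higher in 7 of 13 cases and lower in 0, though quantile normalization gave 2 lower and median centring 3. That is 53.8% called, below the 66.5% of all measured genes. SMAD3, a mediator of TGF-beta signals, lay at 7.56, 7.42 and 7.39 in induced samples, against 4.50, 4.37 and 4.11 in uninduced samples, 8.76-fold higher (limma, adjusted p = 1.80e-06). SMAD2 was 1.56-fold higher, and ATF7IP and TASOR, which act in silencing by histone methylation, were 2.20-fold and 2.42-fold higher. The methyltransferase SETDB1 had no call (0.07, 95% interval -0.10 to 0.23). Of ubiquitin E1 and E2 enzymes 5 of 10 were higher and 1 lower, or 3 and 2 without uninduced replicate 3. The share called, 60.0%, was also below that of all measured genes. UBE2E3 (1.63-fold), UBA6 (1.42-fold) and UBE2E1 (1.23-fold) were higher and UBE2D4 was 1.56-fold lower.

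Genes of the interferon receptor and its transcription factor complex were higher in 8 of 11 cases and lower in 0, with a median of 0.65. After quantile normalization 7 were higher. That is 72.7% called in the main fit, against 66.5% of all measured genes. IRF9, the DNA-binding part of that complex, lay at 6.90, 6.79 and 6.41 in induced samples, against 4.34, 3.85 and 3.78 in uninduced samples, 6.55-fold higher (limma, adjusted p = 2.30e-05). It was above the filter on only 4 of the 6 arrays, so this fold and p-value rest in part on uninduced values that did not pass. USP18 was 4.68-fold, IRF1 3.46-fold and the ubiquitin-like ISG15 1.97-fold higher, though the mean over the IRF1 probe sets was a log2 difference of 0.97, against 1.79 in its brightest. Beside these, the interferon-inducible TRIM genes were divided, as given above; the difference between the lists was not tested. Of 14 RNA and DNA sensing genes 6 were higher and 2 lower, or 5 and 3 after median centring. The share called, 57.1%, was below that of all measured genes. IRF7, which drives interferon genes, lay at 7.08, 7.09 and 7.37 in induced samples, against 3.82, 3.66 and 3.53 in uninduced samples. It was at least 9.04-fold higher (adjusted p = 1.16e-06), but it passed the filter through the induced group alone, as did no other of the 6. The kinase adaptor TAB2 was 2.10-fold and the sensor RIGI, a substrate of TRIM25, 1.60-fold higher, and the adaptor TRAF3 1.71-fold lower. Of the TRIM proteins with other symbols MEFV was flat (4.10 to 4.14 in induced, 4.11 to 4.13 in uninduced samples, adjusted p = 0.944) and MID1 and MID2 were not measured. The MEFV values lay just above the filter, and whether they are transcript or background was not tested.

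**Figure D5:**
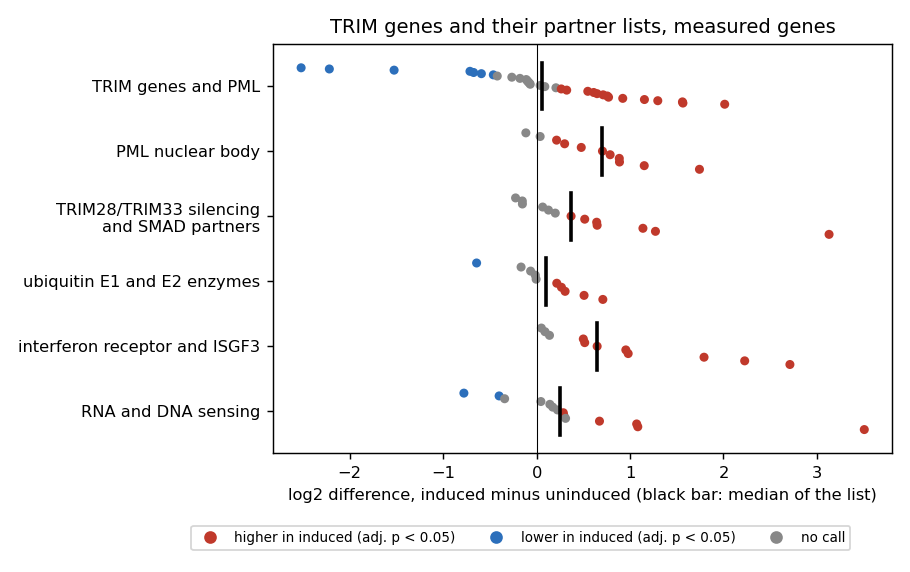
Log2 difference, induced minus uninduced (x axis), of each measured gene of the TRIM family and of 5 partner lists (y axis; points; black bars, list medians; red higher, blue lower, grey not called). The TRIM genes reach from -2.52 to 2.01 around a median of 0.06, and the PML nuclear body genes have a median of 0.71.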

How the data were processed

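RNA of each sample was hybridised to 1 Affymetrix HG-U133 Plus 2.0 array, and titles gave the groups. The deposited values are linear intensities, and the submitters' processing notes name GCRMA, without a version. Joint normalization of the arrays or scaling afterwards was not given in the sources used. GCRMA draws dim probe sets to near-constant values. The 6 values under 1 were raised to 1 and log2 was taken. Of 54675 probe sets 62 controls were left out, and 20552 with log2 above 4 on at least 3 arrays were tested. Genes were named from GEO's platform annotation where a probe set has 1 symbol (41091; several, 1801; none, 11721); 41037 matched the NCBI gene table and 0 symbols changed. For 13 probe sets a TRIM symbol stood beside another, and these were not used.

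The induced and uninduced groups were set against each other by limma 3.58.1 (R 4.3.3), with lmFit, a plain eBayes and no further terms. Tests were two-sided and Benjamini-Hochberg adjusted over all tested probe sets, at a threshold of 0.05. For a group with every array at 4 or below, a fold is a lower bound against 4. Such a probe set passed the filter through the other group alone, and its p-value rests in part on values that did not pass. Members and lists were chosen with earlier results of these data known. Every member is accounted for, and up to 4 genes per partner list with the smallest p are named; SETDB1, DAXX, BLM, MID1 and MID2 were named after their values were seen. The fit was tested on data simulated from the 20552 probe sets' own means and SDs, with 50 probe sets changed at each size. For changes of 0.5, 1, 2 and 4 on the log2 scale it recovered 48%, 80%, 94% and 100%, with 13 wrong calls among 174. In the data 62.5% of tested probe sets were called, a far larger share, and the rates at such a share were not tested. Replicate numbers were checked for pairing: deviations of same-numbered samples correlated at -0.17, 0.00 and 0.18, so the numbers were not taken as pairs. The number of arrays limits the precision. Figures were drawn with matplotlib 3.10.9.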

Additional observations from a re-analysis of the deposited data

How the results depend on the processing

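Of the 21 called TRIM genes 16 kept direction and call under all alternatives that could be computed for them (15 at most), and TRIM4, TRIM24, TRIM26, TRIM62 and TRIM69 did not; of 11 with no call, 2 kept it throughout, TRIM28 and TRIM44. The 21 partner genes with the smallest p in their lists kept their side of the threshold, as did BLM and SETDB1, while DAXX was called lower with quantile normalization (-0.17) and median centring (-0.19). With _x_at and _s_at probe sets left out, 9 TRIM genes were higher, as 23 rather than 32 were measured; TRIM4 turned to -1.02 and TRIM37 to -0.41, each read from another probe set, and the mean over probe sets gave TRIM4 -0.03. After quantile normalization 13 TRIM genes were lower. Partner genes called lower numbered 8 after quantile normalization, 9 after median centring, 5 with a trended and robust eBayes and 8 with array weights; the cause was not tested. Leaving out 1 array at a time gave 13 to 14 TRIM genes higher and 6 to 10 lower, and 30 to 33 partner genes higher and 3 to 6 lower, the 6 without uninduced replicate 3. With the replicate block 14 TRIM genes were higher and 9 lower, the added ones being TRIM22 (adjusted p = 0.0364) and TRIM65 (0.0459), and 36 partner genes were higher and 4 lower. Dim probe sets have no detection calls, so small differences near a log2 value of 4 to 5, as for PML and TRIM3, are the least certain.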

Other observations

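Relatives of the family that the selection left out were near the background. TRIML1 and TRIML2, TRIM-like genes, lay at 2.57 to 3.01 on the log2 scale in induced samples and at 2.59 to 3.0 in uninduced samples. The antisense transcript TRIM52-AS1 was measured with 1 of its 2 probe sets, at 4.54, 4.41 and 4.53 in induced samples, against 4.70, 4.99 and 4.55 in uninduced samples, with a difference of -0.26 and no call (limma, adjusted p = 0.0986), beside 0.21 for TRIM52.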
